A study of Saccharomyces cerevisiae with 61 samples.

Results

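Chromosome XII of budding yeast carries the ribosomal DNA (rDNA), and its topoisomerase sites were taken as all peaks on that chromosome in 1 Top1 and 1 Top2 peak list from meiotic cells, together with the chromosome XII read counts of 28 spike-in libraries. The Top1 list held 186 peaks on chromosome XII of 2234 on 16 chromosomes, and the Top2 list held 218 of 2759. The choice used chromosome position alone and no measured value, though earlier results of these data were known when it was made. Topoisomerases remove the torsional stress and the entanglements that transcription and replication leave in DNA. Top1, a type I enzyme, cuts and reseals a single strand, and Top2, a type II enzyme, passes one duplex through another. The rDNA is a tandem array of near-identical units that encode ribosomal RNA, is transcribed heavily by RNA polymerase I, and is a known site of topoisomerase action in yeast.

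The study follows both enzymes through synchronous meiosis in strains of the SK1 background. The Top1 list came from Myc immunoprecipitation of cells carrying TOP1-13MYC after 3 h in sporulation medium at 30 °C. The Top2 list came from anti-Top2 immunoprecipitation of wild-type (WT) cells at the same hour and temperature. Each list was deposited once for the replicates combined, so no peak value has a replicate error, and libraries of the untagged Myc control were not analysed here. Spike-in libraries gave the Top2 recovered with an anti-Top2 antibody in 14 SK1 cultures, each with a ChIP and an input library, to which fixed meiotic cells of the S288c strain had been added at 20% before ChIP. They comprised top2-1 at 34 °C (n = 2 cultures), WT at 34 °C (n = 2), rec8 (n = 2), spo11 (n = 2) and WT (n = 3) at 30 °C, all after 3 h, and WT at 0 h and 30 °C (n = 3). The top2-1 allele encodes a temperature-sensitive Top2. Rec8 is the meiotic cohesin subunit, and Spo11 makes the DNA breaks that start recombination. Cells for the 34 °C cultures were grown at room temperature and spent their first hour of sporulation there, so temperature came with another growth history. The labels do not say that the numbered cultures were grown on separate days, so p-values speak of these cultures only. The edgeR p-values below also rest on a lower limit set for the dispersion. Those for ChIP against input share 1 estimate of the spread over all groups. They are therefore no measure of the spread of chromosome XII within 1 group.

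The libraries held between 1087617 and 4862244 reads, of which chromosome XII took 47301 to 312066 reads on the SK1 side and 46288 to 137670 on the S288c side. At this depth the counting error of a chromosome XII log2 ratio was 0.0039 to 0.0088 in SK1 reads. The SD between cultures was above it in 5 of the 6 groups, at 0.011 to 0.029, and in spo11, at 0.0035, it was not. Some tags went against the titles. WT replicate 3 at both times carried the strain number of spo11, WT replicate 3 at 0 h was also tagged as 3 h, and the top2-1 cultures carried the strain number of a wild type. For top2-1 libraries without spike-in, the file names in the descriptions give the allele as top2-4. Groups follow the titles, so the values of WT replicate 3, among them every difference between hours in set D below, and of top2-1 rest on those titles. Flow-cell codes in the file names split the 28 libraries into 4 sets, called A to D here. Set C, with WT replicate 1 at both times and spo11 replicate 1, held even counts only. It held the deepest library, and its cultures had the lowest counting errors, 0.0039 to 0.0042. These errors take each count as 1 separate read, and the cause of the even counts was not tested. Both WT cultures at 34 °C formed set A, WT replicate 2 at both times formed set B, and the other cultures, both of top2-1 among them, were in set D. In comparisons with WT at 34 °C, therefore, genotype or temperature cannot be told apart from flow cell.

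Top1 and Top2 peaks lay along chromosome XII at a slightly lower density than on the other chromosomes together. Top1 had 17.98 peaks per 100 kb on chromosome XII against 18.97 on the other 15 chromosomes together, rank 10 of 16 from the highest. Top2 had 21.1 peaks per 100 kb on chromosome XII against 23.5 on the others, which is rank 14. Chromosome length was here the end of the last peak in either list, at 1034765 for chromosome XII. Top1 density was highest on chromosome XV, at 21.3, and lowest on chromosome I, at 10.97. For Top2, chromosome XVI was highest at 24.9 and chromosome I again lowest at 17.8. The 3 chromosomes of like or greater length all had more Top2 peaks per 100 kb than chromosome XII, with 24.8 on IV, 23.7 on VII and 24.1 on XV.

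Peaks covered 13.1% of chromosome XII in the Top1 list, against 14.3% of the other 15 chromosomes, and 16.4% in the Top2 list, against 17.6%. The median Top1 peak of chromosome XII was 520.5 bases wide, the widest median of the 16 chromosomes, against 461 bases on the others. The median Top2 peak was 446.5 bases wide, against 449 bases.

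Peak heights on chromosome XII were near those of the other chromosomes in both lists. The lists differ in antibody, tag and peak settings, so heights are not compared between enzymes. The authors' fold enrichment, a ratio of ChIP to background signal, had a median of 1.32 over the 186 Top1 peaks of chromosome XII, against 1.32 on the other 15 chromosomes, and ran up to 1.78. Over the 218 Top2 peaks its median was 1.53, against 1.56, and its highest value 3.27. A fold enrichment of at least 1.5 was reached by 23 Top1 peaks on chromosome XII, or 12.4%, where 10.7% of all Top1 peaks reached it. Of the Top2 peaks, 113 did, or 51.8%, where the share over all Top2 peaks was 56.9%.

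The strongest Top2 peak of chromosome XII, chrXII:688018-688716, had a fold enrichment of 3.27 and ranked 3 among the 2759 Top2 peaks of the genome. A Top1 peak of nearly the same extent, chrXII:688025-688725, lay under it with a fold enrichment of 1.65. Coordinates are those of the SK1 (Yue) assembly named in the file names, and no annotation of that assembly was used, so genes at these sites are not named. The next 4 Top2 peaks were well below it. They were chrXII:774293-775117 at 2.54, chrXII:617714-618335 at 2.52, chrXII:404737-405132 at 2.49 and chrXII:601787-602155 at 2.48. Each of these peaks overlapped a Top1 peak, and the fold enrichments of those partners ran between 1.31 and 1.69. The widest Top2 peak, chrXII:965177-969310, spanned 4134 bases at a fold enrichment of 2.06.

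The Top1 peaks with the highest fold enrichment were other sites. The first was chrXII:840566-841103 at 1.78, rank 10 among the 2234 Top1 peaks, followed by chrXII:749154-749899 at 1.77, chrXII:87126-87921 at 1.74, chrXII:37259-37909 at 1.71 and chrXII:689881-690727 at 1.69. All 5 overlapped a Top2 peak, with partner fold enrichments between 1.56 and 2.06. The last of them lay just right of the strongest Top2 peak. The widest Top1 peak, chrXII:693611-697828, spanned 4218 bases and lay in the same neighbourhood. The 50 kb bin that holds these sites, from 650 kb to 700 kb, had the largest Top1 coverage of the chromosome at 22.8%, and a Top2 coverage of 23.3%.

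**Figure D1:**
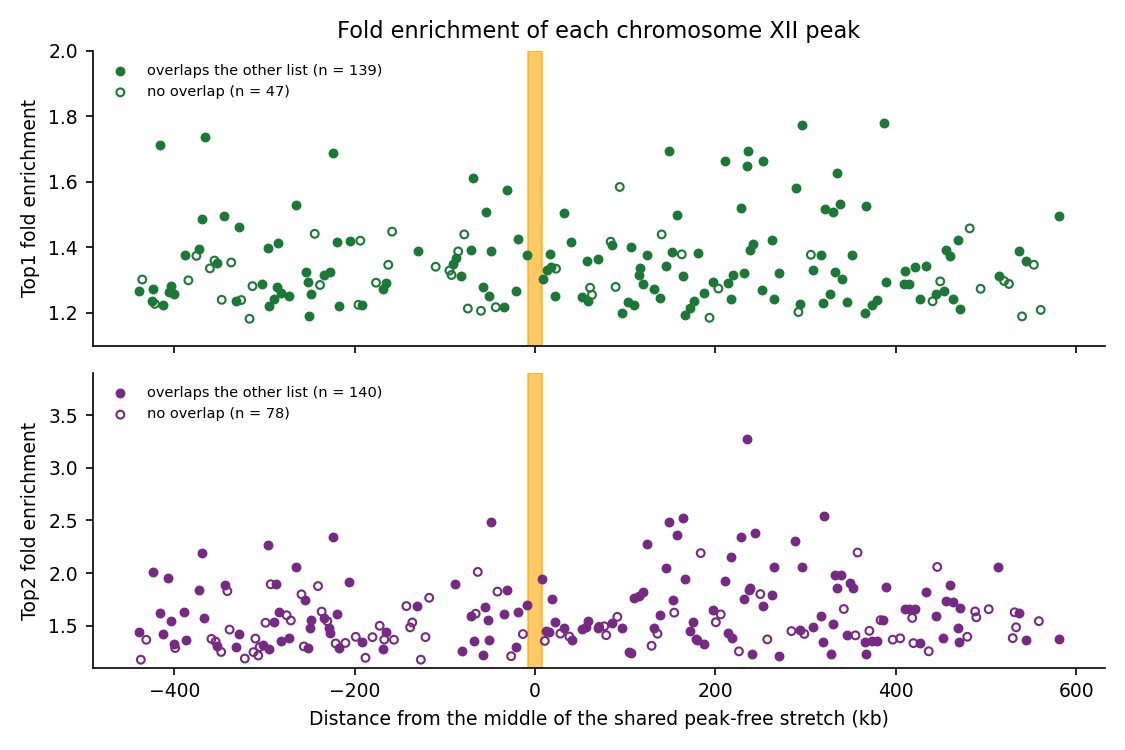
Fold enrichment (authors' ratio, linear axis) of each Top1 peak (upper panel) and Top2 peak (lower panel) of chromosome XII against its distance in kb from the middle of the peak-free stretch that holds the 450 kb position (orange band). Filled points overlap a peak of the other list by at least 1 base. The highest Top2 point, at 3.27, stands well above the rest, and the left side has more open points than the right.

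Counted in 50 kb bins, both enzymes were spread along the whole chromosome, with 1 deep trough for Top1. The 20 full bins held a median of 9 Top1 peaks, from 2 to 13, against a median of 9 and a range of 2 to 18 in 207 bins of the other 15 chromosomes. They held a median of 10.5 Top2 peaks, from 7 to 16, against a median of 12 and a range of 5 to 19. The Top1 trough was the bin from 300 kb to 350 kb, with 2 peaks, and the bin next to it, from 350 kb to 400 kb, held the chromosome's highest Top1 count of 13. Only 1 of the 207 bins elsewhere held as few as 2 Top1 peaks. The same trough bin had 7 Top2 peaks, tied for the lowest with the bin from 950 kb to 1000 kb. The Top2 maximum of 16 peaks fell in the bin from 150 kb to 200 kb. Across the 20 bins, the counts of the 2 enzymes had a Pearson r of 0.489 and a Spearman rho of 0.441, given as a description, since all bins come from the same libraries and neighbouring bins are not independent.

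The trough depended on where bins began. With bins shifted by 25 kb, the lowest Top1 bin held 5 peaks, and in 100 kb bins it held 7.5 per 50 kb. The longest stretch without a Top1 peak on the chromosome, chrXII:295467-324148, was 28682 bases long and the seventh longest of 2218 between Top1 peaks of the genome. The longest stretch without a Top2 peak, chrXII:337005-363004, was 26000 bases long and was the longest of all 2743 between Top2 peaks of the genome. These stretches lay near each other without overlapping, to the left of the 450 kb position near which the rDNA lies.

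**Figure D2:**
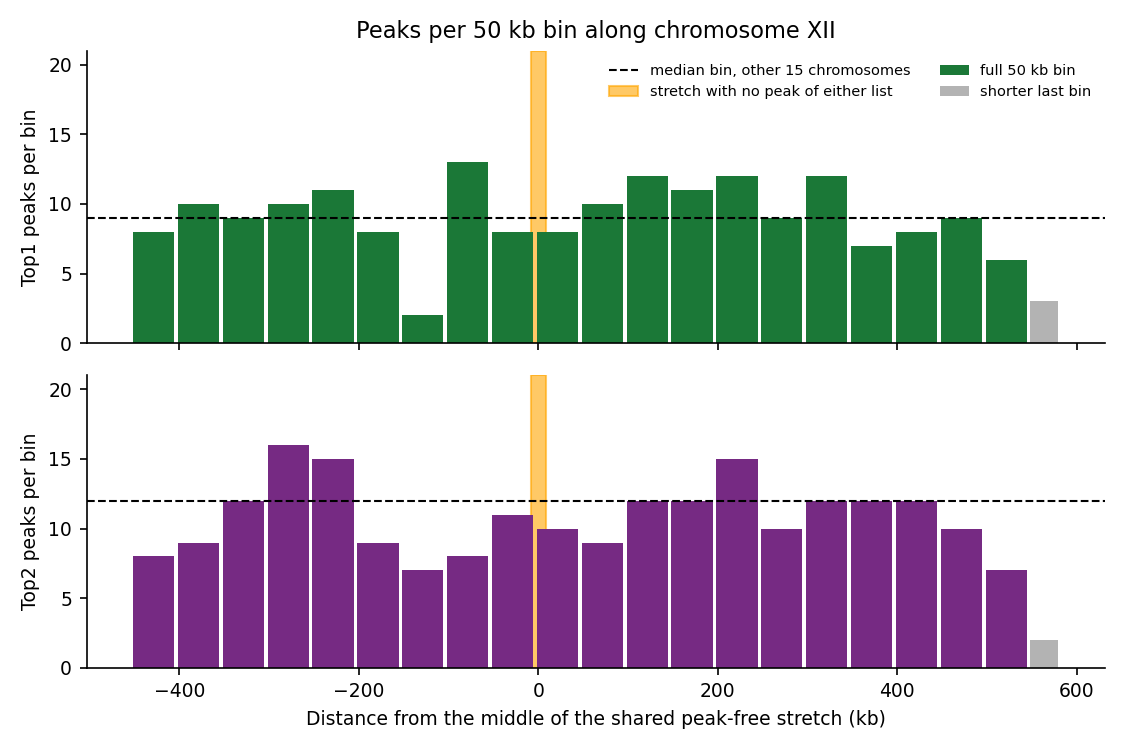
Number of Top1 peaks (upper panel) and Top2 peaks (lower panel) per 50 kb bin of chromosome XII, by distance of the bin from the middle of the shared peak-free stretch (orange band). The dashed line is the median bin of the other 15 chromosomes, at 9 Top1 and 12 Top2 peaks, and the lowest Top1 bin, with 2 peaks, lies left of the band.

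The 450 kb position, given as the neighbourhood of the rDNA, fell in a stretch with no peak of either enzyme. This stretch, chrXII:445736-461753, was 16018 bases long. It was the second longest of 257 such stretches between peaks of either list on chromosome XII, and the fifth longest of 3119 in the genome, where the longest, on chromosome X, was 22599 bases. The median stretch was 2278 bases on chromosome XII and 2256.5 on the other 15 chromosomes. The longest on chromosome XII, chrXII:1014945-1034248, was 19304 bases and lay just before the last peaks of the right end. The files do not mark the rDNA, and how reads from repeated sequence were placed is not given in the sources used here. A stretch without peaks is therefore no measure of how much enzyme was on the rDNA, and the part of repeat reads in it was not tested.

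Both edges of the stretch carried both enzymes. On its left, Top1 peak chrXII:443000-445735 had a fold enrichment of 1.38 and Top2 peak chrXII:443553-445230 one of 1.70, the smaller Top2 interval lying inside the Top1 interval. On its right, Top1 peak chrXII:461817-462498 had 1.30 and Top2 peak chrXII:461754-462166 had 1.94. Top1 was not sparse around it, while Top2 between 350 kb and 550 kb was below its density on the rest of the chromosome. In the 100 kb left of the stretch there were 21 Top1 and 19 Top2 peaks, and in the 100 kb right of it 21 and 22. Between 350 kb and 550 kb, Top1 had 19.5 peaks per 100 kb, against 17.6 on the rest of the chromosome, and Top2 had 19.0 against 21.6.

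Most topoisomerase sites of chromosome XII were shared by both enzymes, at shares near those of the genome. Of its 186 Top1 peaks, 139 shared at least 1 base with a Top2 peak, which is 74.7% (exact 95% interval 67.9% to 80.8%). Over all 16 chromosomes, 79.9% of Top1 peaks did. Of its 218 Top2 peaks, 140 overlapped a Top1 peak, or 64.2% (57.5% to 70.6%), and 65.4% did over all chromosomes. The difference between chromosome XII and the other 15 chromosomes was −5.64 percentage points for Top1 peaks, with a 95% interval of −12.7 to 0.691 by Newcombe's method, and −1.27 points for Top2 peaks, with an interval of −8.27 to 5.37. Both intervals include 0. These intervals treat peaks as independent and cover counting error only. With both lists cut to a fold enrichment of at least 1.5, a partner had to reach that value too. On this other measure the direction turned, to 7.72 points for Top1 and 5.21 points for Top2, given without intervals. The cut left 23 Top1 peaks on chromosome XII. By Top1 share, chromosome XII ranked 14 of 16, where the highest was XVI at 84.9% and the lowest VIII at 69.9%, and by Top2 share it ranked 7.

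**Figure D3:**
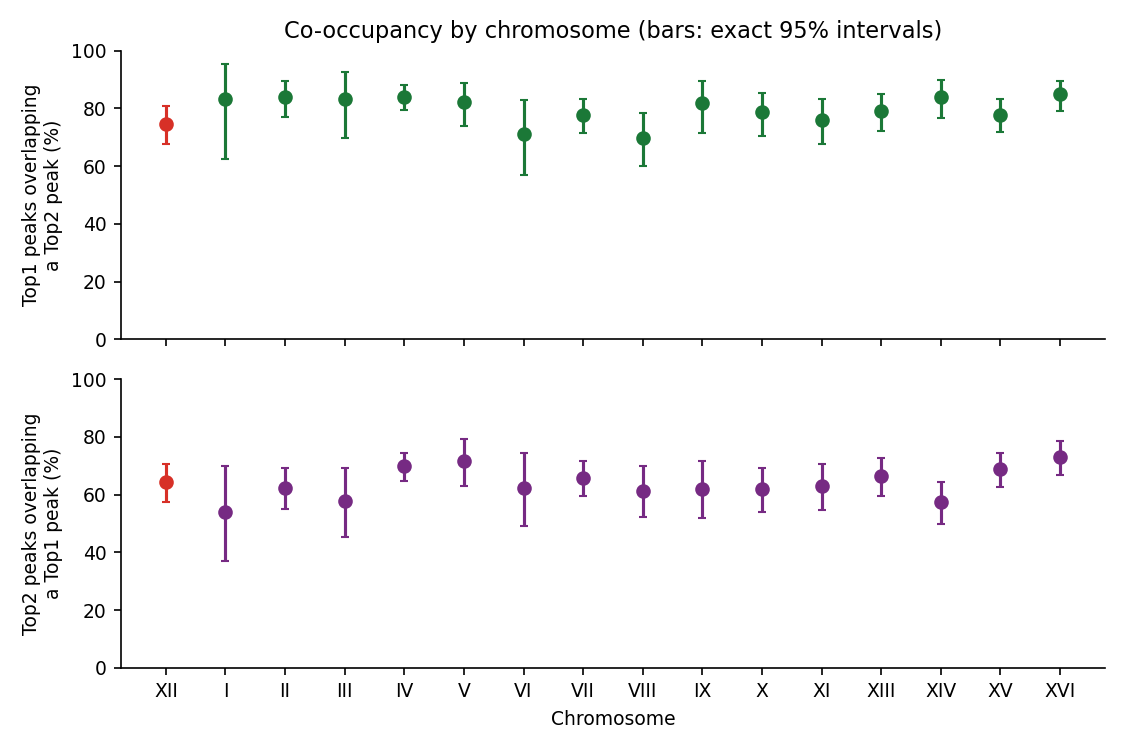
Percent of Top1 peaks that overlap a Top2 peak (upper panel) and of Top2 peaks that overlap a Top1 peak (lower panel), by chromosome, with exact 95% binomial intervals as bars. Chromosome XII (red) lies at 74.7% and 64.2%, and its intervals overlap those of most other chromosomes.

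Sharing was most frequent among the peaks with the highest fold enrichment, in both lists. The peaks of chromosome XII in each list were divided by fold enrichment into 4 classes of nearly equal number. From the lowest class to the highest, 33 of 47, 33 of 46, 34 of 46 and 39 of 47 of its Top1 peaks were shared, the first 3 being 70.2%, 71.7% and 73.9%. Top1 peaks of the other 15 chromosomes within the same limits were shared at 70.1%, 79.2%, 83.4% and 87.2%. The lowest class of chromosome XII was level with the other chromosomes and the 3 higher classes were below them, with no test made. For Top2 the classes of chromosome XII were shared at 58.2%, 51.9%, 66.7% and 80.0%, against 46.1%, 59.1%, 68.0% and 83.3% elsewhere. Shared Top2 peaks of chromosome XII were wider than unshared ones, with medians of 616.5 and 350.5 bases, and had a median fold enrichment of 1.58 against 1.44. Shared Top1 peaks had median widths of 554 bases against 398 for unshared ones. A wide peak has more room to overlap, and the part of width in these shares was not tested.

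Shared sites were also counted on each side of the stretch. Left of it, 53 of 79 Top1 peaks were shared, or 67.1% (55.6% to 77.3%), and right of it 86 of 107, or 80.4% (71.6% to 87.4%). For Top2 it was 54 of 95 on the left, or 56.8% (46.3% to 67.0%), and 86 of 123 on the right, or 69.9% (61.0% to 77.9%). The sides were compared after their values were seen, the intervals overlap, and no test of the difference was made. Single bins ran further apart. All 10 Top1 peaks between 150 kb and 200 kb were shared and so were all 7 between 800 kb and 850 kb, while 3 of 8 were between 250 kb and 300 kb. In the Top1 trough from 300 kb to 350 kb, 1 of 7 Top2 peaks had a Top1 partner. That bin held only 2 Top1 peaks, so few partners were there to be had.

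Where both enzymes occupied a site, the heights of their peaks were loosely related. Pairs were chosen by overlap, which itself limits how far apart their centres can lie. The 139 Top1 peaks of chromosome XII with a Top2 partner had their centres a median of 129 bases from the partner's, with quartiles of 46.3 and 446.8 bases, against a median of 108 bases for 1646 pairs on the other 15 chromosomes. The Top1 peak lay wholly inside the Top2 peak in 45 pairs, or 32.4%, and the reverse held in 19, or 13.7%. Across pairs, the fold enrichments of the 2 enzymes had a Pearson r of 0.401 and a Spearman rho of 0.391 on chromosome XII, and 0.295 and 0.295 on the others. These correlations run across sites that share libraries and local input coverage, and the 139 pairs use 133 distinct Top2 peaks.

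The outermost peaks on each side were shared. The first were Top1 peak chrXII:14159-14362, with a fold enrichment of 1.27, and Top2 peak chrXII:14086-14381, with 1.44. The last were Top1 peak chrXII:1034341-1034732, with 1.49, and Top2 peak chrXII:1034249-1034765, with 1.37. Because the chromosome's length was taken from this last peak, its distance from the true end is not known. The first 50 kb held 8 peaks of each enzyme and the 50 kb before the end of the last peak held 6 of each.

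Top2 was then followed by chromosome in the spike-in counts, starting with the share of reads that chromosome XII took. In SK1 reads, chromosome XII took 7.65% to 7.93% of the 14 inputs, which is 0.887 times its 8.75% of the summed chromosome lengths. Only chromosome III had a lower ratio, at 0.806. The S288c spike-in cells gave another picture. In S288c reads chromosome XII took 10.5% to 19.4% of the inputs, a range of 1.84-fold that was the widest of the 16 chromosomes. For SK1 chromosome XII the same ratio of highest to lowest was 1.04.

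The S288c share followed the flow cell. It was 10.5% to 11.7% in set C, 11.9% to 12.2% in set A, 16.6% to 19.3% in set B and 15.95% to 19.4% in set D. The labels name 1 kind of spike-in cells for all cultures. Whether reads of SK1 repeats were counted on S288c chromosome XII was not tested. Within each of the sets B, C and D the input of the WT culture at 3 h had a larger S288c chromosome XII share than that of WT at 0 h, by 2.69, 0.692 and 3.41 percentage points. The ratio of SK1 to S288c input reads in the same sets B, C and D was 4.10, 4.29 and 4.34 in WT at 3 h, against 2.02, 2.56 and 2.19 in WT at 0 h, so it was higher along with the share. Because of this spread, S288c totals leave out chromosome XII in the fits and scaled ratios below, unless stated. Shares of S288c chromosome XII are of the total that includes it.

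Chromosome XII was under-represented among the SK1 reads that the Top2 antibody recovered after 3 h in all groups but top2-1. In WT at 3 h it took 7.42%, 7.08% and 7.40% of the ChIP reads of replicates 1, 2 and 3, against 7.87%, 7.65% and 7.68% of their inputs. The log2 ratios of ChIP share to input share were −0.085, −0.111 and −0.053, all below 0. In edgeR's quasi-likelihood test of ChIP against input over all 14 cultures, the log2 change in WT at 3 h was −0.083 (adjusted p = 1.76e-14, BH over 16 chromosomes, n = 3). The spread was shared over all groups, so this p-value does not measure the spread of the WT cultures at 3 h alone. In that group 62.5% of the 16 chromosomes passed the adjusted threshold of 0.05, 5 higher and 5 lower in ChIP, so passing was common. The mean of chromosome XII was the lowest of the 16, next to VIII at −0.077, a gap smaller than the SD of 0.029 between cultures.

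The rec8, spo11 and 34 °C WT cultures gave values of like size. In rec8 the log2 ratios were −0.123 and −0.086, and the fitted change was −0.104 (edgeR adjusted p = 1.44e-14), where 81.2% of chromosomes passed. In spo11 they were −0.089 and −0.094, with a fitted change of −0.091 (edgeR adjusted p = 3.61e-12), where 62.5% passed. In WT at 34 °C they were −0.103 and −0.068, with a fitted change of −0.085 (edgeR adjusted p = 2.98e-11), where 62.5% passed. Chromosome XII had the lowest mean of the 16 chromosomes in each of these groups too, next to VIII at −0.097 in rec8, −0.085 in spo11 and −0.058 in WT at 34 °C. The rec8 call was lost when edgeR's dispersion was left at its estimate (adjusted p = 0.121).

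At the start of meiosis the shortfall was smaller. WT at 0 h had log2 ratios of −0.024, −0.036 and −0.046, with a fitted change of −0.035 (edgeR adjusted p = 7.91e-04), where 62.5% of chromosomes passed. There chromosome XII was the fourth lowest, and chromosome VI the lowest at −0.055. In top2-1 no shortfall was measured. The log2 ratios were 0.011 and −0.0074, on either side of 0, and the fitted change was 0.0020 (edgeR adjusted p = 0.889). In that group 6.25% of the chromosomes passed, which was chromosome VI alone.

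**Figure D4:**
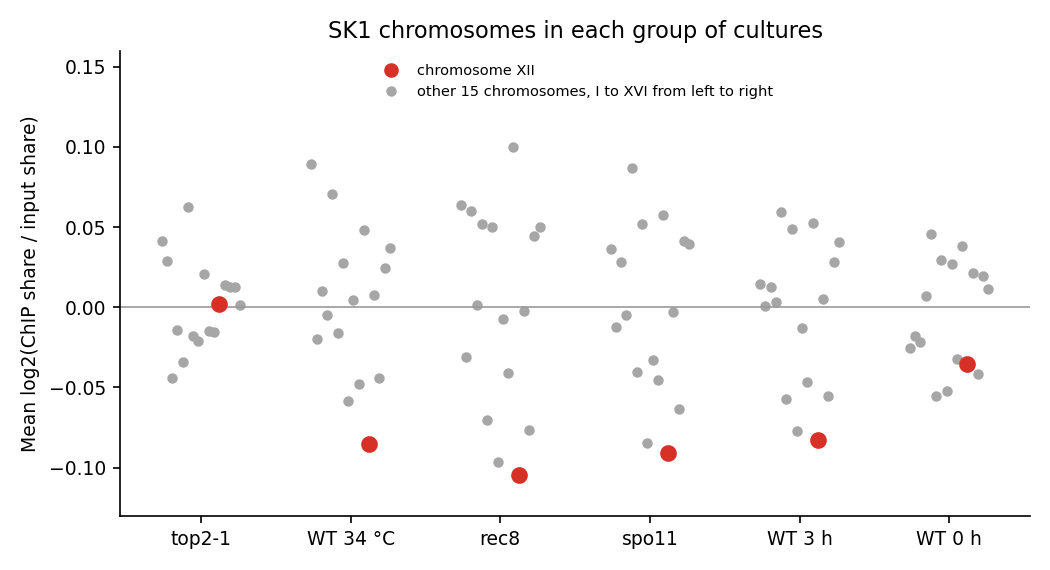
Mean log2 ratio of ChIP share to input share of SK1 reads for each chromosome in each of the 6 groups (n = 2 or 3 cultures). Chromosome XII (red) is the lowest point in WT at 34 °C, rec8, spo11 and WT at 3 h, and lies inside the range of the others in top2-1 and in WT at 0 h.

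**Figure D5:**
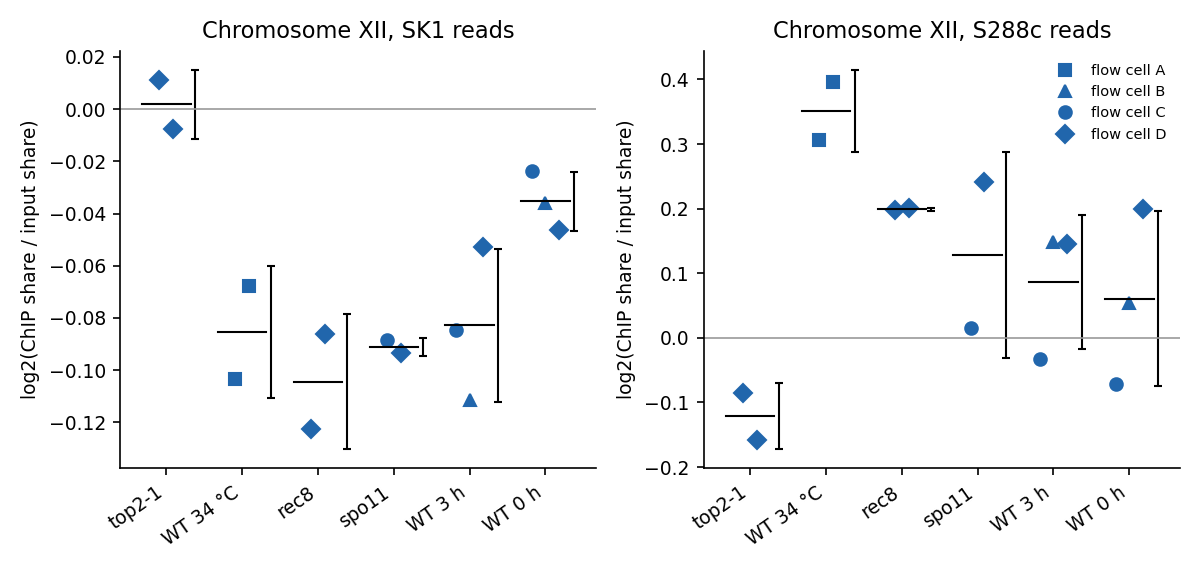
Log2 ratio of ChIP share to input share of chromosome XII in each culture, for SK1 reads (left) and S288c reads (right), on different vertical scales. Points are cultures, marked by flow cell, horizontal lines are group means and bars are SD. In SK1 reads both top2-1 cultures lie above all others, and in S288c reads both lie below all others.

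The change between hours was small and near the limit of the test. The mean log2 ratio of SK1 chromosome XII was −0.083 ± 0.029 in WT at 3 h and −0.035 ± 0.011 in WT at 0 h (SD, n = 3 each), and the 3 values at 3 h all lay below those at 0 h. In the edgeR quasi-likelihood fit of both groups the relative share was lower at 3 h by a log2 change of −0.048 (adjusted p = 0.0455). Chromosome XII was the only one called, 6.25% of the 16. Within flow cells the change was −0.075 in set B, −0.061 in set C and −0.0064 in set D. Here the replicate numbers coincide with the flow cells, and with that block the change was −0.048 and no longer called (edgeR adjusted p = 0.0991). The call was also lost with TMM factors (edgeR adjusted p = 0.0585), with set C left out (0.338), and on leaving out any 1 of WT 3 h replicates 1 and 2 and WT 0 h replicates 1 and 2, with an adjusted p of up to 0.343. It held without both WT cultures numbered 3, whose strain tags are in doubt, at −0.068 (edgeR adjusted p = 0.0116).

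Neither the rec8 nor the spo11 genotype gave a detectable change in the SK1 chromosome XII share. The mean log2 ratio was −0.104 ± 0.026 in rec8 (SD, n = 2), against −0.083 ± 0.029 in WT at 3 h (n = 3), a fitted difference of −0.021 (edgeR adjusted p = 0.560). It was −0.0029 without rec8 replicate 1, −0.040 without rec8 replicate 2, −0.0067 without WT replicate 3 and −0.035 without WT replicate 2. Over the whole genome the edgeR test called 0 of 16 chromosomes, and 0% is therefore the background. At an unadjusted p under 0.05 edgeR had 1 and DESeq2 called 0. Within flow cell D, where both rec8 cultures and 1 WT culture lie, the difference was −0.052. The mean was −0.091 ± 0.0035 in spo11 (n = 2), a difference from WT at 3 h of −0.0079 (edgeR adjusted p = 0.899), with 0% of chromosomes called, none at an unadjusted p under 0.05 and none by DESeq2. Within flow cells it was −0.0040 in set C and −0.041 in set D. The spo11 and rec8 values overlapped the WT range in both comparisons. WT replicate 3, at −0.053, was the highest of the WT values and was the only WT culture in set D at 3 h.

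The top2-1 cultures differed from WT at 34 °C. Chromosome XII took 7.71% and 7.71% of the SK1 ChIP reads in top2-1 against 7.65% and 7.75% of their inputs, and 7.29% and 7.46% in WT at 34 °C against 7.84% and 7.82% of theirs. The relative share was higher in top2-1 by a log2 change of 0.088 (edgeR adjusted p = 3.23e-05, n = 2 each), and the groups did not overlap. In this comparison 56.2% of the 16 chromosomes were called, 4 higher and 5 lower in top2-1, so chromosome XII was 1 of several that moved. Leaving out top2-1 replicate 1 gave an adjusted p of 0.0521. No flow cell held both groups, so no value within a flow cell could be had.

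No change in this share was detectable between the WT cultures at 34 °C and at 30 °C, which also differed in growth history and flow cell. The mean log2 ratio was −0.086 ± 0.025 in WT at 34 °C (SD, n = 2) and −0.083 ± 0.029 in WT at 30 °C after 3 h (n = 3), with a fitted difference of −0.0024 (edgeR adjusted p = 0.958). In that comparison 6.25% of the chromosomes were called, which was chromosome I alone. Here too no flow cell held both groups.

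Shares say nothing of the level of Top2 recovery or of its total amount, so chromosome XII reads were also scaled to the spike-in. The scaled ratio is the SK1 chromosome XII reads over the S288c reads of the other 15 chromosomes in ChIP, divided by the same ratio in input. Through that division it gives Top2 recovery relative to input DNA, and not the total amount of Top2 on the chromosome. It was 0.496 and 0.340 in top2-1, against 1.86 and 1.60 in WT at 34 °C. The means of 0.418 ± 0.111 and 1.73 ± 0.180 (SD, n = 2 each) differ by −2.07 on the log2 scale, where the pooled SD was 0.293. Permuting the cultures gave an exact two-sided p of 0.333, the smallest that 2 against 2 cultures allow. The other 15 chromosomes had scaled ratios of 0.492 and 0.342 in top2-1 and 2.01 and 1.69 in WT at 34 °C, so that Top2 recovery was lower on chromosome XII along with the rest of the genome.

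The scaled ratio was also higher after 3 h than at the start. It was 1.20, 1.44 and 1.18 in WT at 3 h, against 0.970, 0.908 and 1.05 in WT at 0 h, with no overlap. The means were 1.28 ± 0.144 and 0.976 ± 0.072 (SD, n = 3 each), which is 0.382 on the log2 scale where the pooled SD was 0.135. Without the input correction the difference was 1.33, since the input ratio of SK1 to S288c reads was itself higher at 3 h. The exact permutation p was 0.1, the smallest that 3 against 3 cultures allow. The difference was positive within each flow cell, at 0.667 in B, 0.308 in C and 0.172 in D. The other 15 chromosomes averaged 1.36 ± 0.181 at 3 h and 1.00 ± 0.079 at 0 h.

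Among the cultures at 3 h and 30 °C the ratio did not separate by genotype. It was 1.31 and 1.39 in rec8, inside the WT range, and 1.18 and 1.44 in spo11, the lower of them just below it, with log2 differences from WT of 0.086 (exact permutation p = 0.6) and 0.037 (exact permutation p = 0.8). With 2 against 3 cultures the smallest possible p is 0.2. Within flow cells the difference was 0.187 for rec8 in set D, and for spo11 it was −0.023 in set C and 0.279 in set D. WT at 34 °C, at 1.86 and 1.60, lay above all 3 WT cultures at 30 °C by a mean of 0.442 on the log2 scale, with that smallest exact permutation p of 0.2. After BH adjustment over the 5 comparisons, p ran between 0.5 and 0.8, and none passed 0.05. Without the input correction the differences for rec8, spo11 and WT at 34 °C changed sign, to −0.295, −0.075 and −0.094.

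Reads counted on S288c chromosome XII were examined in the same tubes. They are described as counted, since a part of SK1 repeat reads in them was not tested. The shares here are of the S288c total with chromosome XII in it. The log2 ratio of ChIP share to input share was −0.085 and −0.158 in top2-1, against 0.307 and 0.397 in WT at 34 °C. It was 0.198 and 0.201 in rec8, 0.015 and 0.241 in spo11, −0.033, 0.148 and 0.146 in WT at 3 h, and −0.072, 0.054 and 0.199 in WT at 0 h. In each group but top2-1 its mean was the highest of the 16 S288c chromosomes, where the SK1 chromosome XII mean was the lowest in 4 of those 5 groups. The set C cultures gave the lowest value within each group that held one.

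Against the other S288c chromosomes, chromosome XII was lower in top2-1 than in WT at 34 °C by a log2 change of −0.552 (edgeR adjusted p = 0.0144). In this comparison 25% of the S288c chromosomes were called, 2 higher and 2 lower. The other lower one was XIV, at −0.291 (edgeR adjusted p = 0.0144). By mean log2 ratio of shares in top2-1, XIV was the lowest of the 16, at −0.293, against −0.121 for XII. The change of chromosome XII in S288c reads was opposite in sign to that in SK1 reads. Leaving out either top2-1 culture lost the chromosome XII call, with an adjusted p of up to 0.125. The comparison of WT at 34 °C with WT at 30 °C gave 0.298 (edgeR adjusted p = 0.0940), with 6.25% called. The rec8, spo11 and 3 h comparisons gave 0.134, 0.048 and 0.036 (edgeR adjusted p = 0.367, 0.941 and 0.887), with 6.25%, 0% and 0% called. With set C left out, rec8 became a call at 0.059 (edgeR adjusted p = 8.37e-10). The spo11 difference was then 0.117, with 1 spo11 culture left in that comparison. The WT cultures left at 3 h had log2 ratios of 0.148 and 0.146, closer together than their counting errors of 0.0085 and 0.0092. With set C in, the SD of WT at 3 h was 0.104, so the rec8 p-value does not reflect that wider spread. The difference between WT at 34 °C and 30 °C became a call with the replicate block, at 0.333 (edgeR adjusted p = 0.0231), with set C left out, at 0.223 (2.00e-04), with DESeq2, at 0.300 (0.0303), and with the total including chromosome XII, at 0.266 (edgeR adjusted p = 6.08e-04). That block joins cultures by number only, with no flow cell in common. In SK1 shares, deviations of the same-numbered cultures correlated at −0.172 and −0.592. Leaving out set C used the same close WT cultures at 3 h and 30 °C. Within flow cells the mean log2 ratio of S288c chromosome XII shares, with it in the total, differed by 0.053 for rec8 in set D. For spo11 the difference was 0.048 and 0.095 in sets C and D. For 3 h against 0 h it was 0.094, 0.039 and −0.053 in sets B, C and D. For the comparisons with 0 calls, edgeR had 2 chromosomes for spo11 and 1 for the hours at an unadjusted p under 0.05, and DESeq2 called 1 and 0.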

How the data were processed

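The chromosome was chosen, and lists and tests set up, with earlier results of these data known. The authors deposited the spike-in data as raw counts of reads on each chromosome of a combined S288c and SK1 (Yue) reference, with an unassigned row of 0. The peak lists give a fold enrichment (a linear ratio) and a −log10 q-value for each broad peak, deposited by the authors. Per the submitters' processing notes, Bowtie and MACS2 2.1.1 were used. Their settings, the reference lengths and the treatment of repeated reads are not given in the sources used here. Per the file names, the 2 peak lists were made under different unexplained settings, so Top1 and Top2 counts are not on 1 scale. Per the series' design text, each deposited track combines 2 replicates, and the names of the peak lists match those of tracks.

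For relative shares, edgeR's quasi-likelihood test (version 4.0.16, under R 4.3.3) was run on counts of 16 chromosomes of 1 genome. Each fit gave every culture its own level and tested how the ChIP effect differed between the 2 groups compared. ChIP against input was fitted over all 14 cultures, with 1 ChIP effect for each group. The library size was the genome's total, without chromosome XII for S288c. The dispersion had a floor of 0.0001, because edgeR's deviances had been found to break down below it in earlier work on these counts, and p-values were BH-adjusted over 16 chromosomes. In the SK1 fits of the comparisons and of ChIP against input, alternatives aside, the dispersion used was this floor. DESeq2 1.42.0 was an alternative. An exact permutation test, two-sided, compared the spike-in-scaled log2 ratios. Peaks were shared when they overlapped by at least 1 base, and intervals on shares are Clopper-Pearson 95% intervals. Starts count from 1. Python 3.11.15 with scipy 1.17.1, pandas 2.3.3, numpy 2.4.6 and matplotlib 3.10.9 served for the rest. Of these methods, the edgeR fits of SK1 comparisons were run on simulated counts. Those counts were drawn at the dispersion floor, without culture or flow-cell effects, so they do not cover a wider spread.

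Named peaks were, for each list, the 5 with the highest fold enrichment on chromosome XII, the widest, the nearest on each side of 450 kb, the first and the last. Named chromosomes were XII, the highest and lowest of each measure, and IV, VII and XV. Chromosomes VIII, VI and XIV, and the bins named for their shares, were added after their values were seen. In WT at 3 h against 0 h, deviations of same-numbered cultures correlated at 0.590, 0.171 and 0.096 over chromosomes, so the numbers alone do not pair the cultures, but the file names place each pair on 1 flow cell. Expression values and tracks without a count table or peak list were not used here.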

Additional observations from a re-analysis of the deposited data

Results flagged for a closer look

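The effect of ChIP on the chromosome XII share differed between groups, by edgeR's test of the difference itself, in 3 cases. In SK1 reads the log2 difference was −0.048 in WT at 3 h against WT at 0 h (adjusted p = 0.0455), and in top2-1 against WT at 34 °C it was 0.088 (adjusted p = 3.23e-05). The first call was lost with the replicate block, which here matches the flow cell (adjusted p = 0.0991), with TMM factors, with flow cell C left out and in 4 of 6 fits that left out 1 culture, and the second without top2-1 replicate 1 (adjusted p = 0.0521). In S288c reads it was −0.552 in top2-1 against WT at 34 °C (adjusted p = 0.0144), opposite in sign to the SK1 difference of the same cultures, with both top2-1 cultures below both WT cultures. That call was lost on leaving out either top2-1 culture (adjusted p up to 0.125). Both top2-1 differences lie between flow cells, so genotype and flow cell cannot be told apart.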

How the results depend on the processing

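Over the 210 alternative values other than leaving out 1 culture, 175 kept their direction and their side of the threshold, or stayed within 1.5 times the count or within the 95% interval, and 35 did not. Of those kept, 16 are scaled ratios whose exact test cannot pass 0.05 in these designs, so they say nothing of stability. Flow cell C left out, flow cell C counts divided by 2 and WT cultures numbered 3 left out were chosen after seeing the data, and the causes of the changes below were not tested.

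For the SK1 share in WT at 3 h against 0 h, the call was lost at −0.054 with TMM factors, at −0.048 with the replicate block and at −0.041 with flow cell C left out. The spo11 difference changed sign to 0.0065 with the replicate block and to 0.0067 with WT cultures numbered 3 left out. The difference between WT at 34 °C and 30 °C changed sign to 0.00039 with TMM factors, 0.012 with the replicate block and 0.012 with WT cultures numbered 3 left out. In ChIP against input, the rec8 call was lost at −0.104 without the dispersion floor, and top2-1 changed sign to −0.0035 with TMM factors. For S288c chromosome XII, WT at 34 °C against 30 °C became a call at 0.300 with DESeq2, 0.266 with the total including chromosome XII, 0.333 with the replicate block and 0.223 with flow cell C left out. With flow cell C left out, rec8 became a call at 0.059, and spo11, with 1 culture left, stood at 0.117. The WT cultures left at 3 h lay closer together there than their counting error. The scaled ratio changed sign without input correction, to −0.295 in rec8, −0.075 in spo11 and −0.094 in WT at 34 °C, and to −0.014 in spo11 with the replicate block. For WT at 3 h against 0 h the scaled difference was 1.33 without input correction. The replicate block moved the SK1 difference of rec8 to −0.0067 and changed no other call. In comparisons other than the hours, the block follows culture numbers that do not all share a flow cell.

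Fewer peaks remained under stricter thresholds. At a fold enrichment of at least 1.5, chromosome XII kept 23 Top1 peaks covering 1.83% and 113 Top2 peaks covering 10.2%. Both lists were cut, so a partner had to reach 1.5 too. The shared part was then 82.6% of Top1 peaks, 7.72 points above the other 15 chromosomes, and 16.8% of Top2 peaks. At a −log10 q of at least 5, 79 Top1 peaks covering 7.07% remained and 35.6% of Top2 peaks were shared. With a reciprocal overlap of at least 50%, 45.7% of Top1 and 39.0% of Top2 peaks were shared. The lowest Top1 bin held 7.5 peaks per 50 kb in 100 kb bins and 5 in shifted bins, and the lowest 25 kb bin held 2 Top2 peaks per 50 kb.

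Leaving out each culture in turn moved the SK1 difference of WT at 3 h against 0 h between −0.063 and −0.034, of rec8 between −0.040 and −0.0029, of spo11 between −0.022 and 0.0067, of top2-1 between 0.070 and 0.105, and of WT at 34 °C against 30 °C between −0.020 and 0.015. In S288c reads the ranges were −0.042 to 0.118 for the hours, 0.059 to 0.172 for rec8, −0.093 to 0.192 for spo11, −0.604 to −0.499 for top2-1 and 0.223 to 0.350 for temperature. ChIP against input in top2-1 ran between −0.0074 and 0.011, and the scaled ratio of spo11 between −0.105 and 0.178. Where 1 culture was left in a group, it was assumed to vary like the others. For SK1 reads counting error was below the SD between cultures in all groups but spo11, so the number of cultures limits the other 5 groups more than depth does.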
